A study of Homo sapiens with 18 samples.

Results

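Of 2149 RNA regions bound by wild-type MYC, 948 had their point of highest signal close to the start of a gene, and these start peaks are described here. A peak is a stretch of RNA where the fragments that came down with MYC pile up, and its summit is the highest point within it. A peak was counted when its summit lay within 500 bp of the start of its host, the shortest RefSeq gene that holds the summit, whatever strand that gene is on. For plus-strand peaks the start was the gene's lower end and for minus-strand peaks its upper end, so a counted summit can only lie downstream of the start. The 948 peaks were 44.1% of the list (95% Wilson interval 42.0 to 46.2) and 44.7% of the 2121 peaks with a summit in a gene. They fell in 908 genes on 23 chromosomes. All intervals on shares of peaks or genes cover counting error only.

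The study used enhanced crosslinking and immunoprecipitation with sequencing (eCLIP), which joins proteins to RNA with ultraviolet light and sequences the RNA that is precipitated with one protein. It was run in U2OS cells, an established human osteosarcoma line, with the endogenous MYC gene knocked out and a FLAG-tagged MYC transgene under a Tet-On switch. There were 18 samples in 12 groups: 3 alleles (MYC-WT, MYC-3A and MYC-7A), each given 1 µg/mL doxycycline or PBS for 24 h, with 2 immunoprecipitates and 1 input per allele and treatment. One deposited peak list per allele, from the doxycycline-treated immunoprecipitates, was used here, with 2149 wild-type, 103 3A and 88 7A peaks. All groups carry the knockout and the tagged transgene, and no source used here states how much MYC it makes. The labels do not name the residues changed in 3A and 7A. PBS-treated cells were not analysed here, so no background without induced MYC stands beside the values. The lists hold no value per replicate, so no spread between cultures can be given and no test between alleles was made.

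MYC is a basic helix-loop-helix leucine zipper protein that pairs with MAX and binds DNA at E-boxes in promoters, most strongly at CACGTG. It is best known for raising transcription of genes for ribosome production, translation, nucleotide synthesis and energy metabolism. RNA polymerase II begins its transcript at the promoter and often pauses a short way downstream, so the first stretch of a transcript is made next to promoter-bound factors. In the genes of ribosomal proteins the transcript typically begins with a C followed by a run of pyrimidines, called a 5′ terminal oligopyrimidine motif, which links their translation to growth signals.

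The promoters of several hosts show what lies upstream of a start peak. The coding strand is given 5′ to 3′ from RefSeq, assembly GRCh38.p14, with at most the first 30 transcribed bases, and 649 of the 908 hosts had an entry. The first set holds the hosts of the highest fold enrichment with the E-box CACGTG within the bases printed here, chosen after these values were seen. The E-box is in capitals. Hosts with an E-box only outside the printed bases were passed over, so the set favours E-boxes close to the start. In the wider promoter windows described below, 67 of the 649 hosts had CACGTG upstream of the start and 17 had it downstream. Each line gives 120 bases before the start and the 30 bases from it.
NOP14 (chr4:2963377-2963526, minus strand): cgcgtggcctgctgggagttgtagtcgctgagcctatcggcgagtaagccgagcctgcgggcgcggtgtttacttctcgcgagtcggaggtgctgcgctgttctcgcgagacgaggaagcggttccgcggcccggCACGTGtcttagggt
WDR77 (chr1:111449227-111449376, minus strand): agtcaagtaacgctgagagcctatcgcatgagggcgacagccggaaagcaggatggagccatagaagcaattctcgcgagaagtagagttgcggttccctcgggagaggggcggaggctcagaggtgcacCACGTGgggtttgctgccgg
MTHFD1 (chr14:64388233-64388382, plus strand): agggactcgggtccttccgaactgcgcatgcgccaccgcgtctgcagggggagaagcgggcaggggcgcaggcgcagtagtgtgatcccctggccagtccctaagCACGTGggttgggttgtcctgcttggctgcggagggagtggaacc
In NOP14, a ribosome assembly factor, and WDR77, a partner of an arginine methyltransferase, the E-box lay within the first transcribed bases. In MTHFD1, an enzyme of folate metabolism, it lay just before the start. The MTHFD1 peak began 9 bp upstream of the annotated start and had its summit 57 bp downstream.

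The second set holds the hosts of the highest fold enrichment in the promoter table, with 60 bases before the start and 30 from it. None of these printed stretches holds the E-box CACGTG, so nothing is in capitals.
NME1 (chr17:51153499-51153588, plus strand): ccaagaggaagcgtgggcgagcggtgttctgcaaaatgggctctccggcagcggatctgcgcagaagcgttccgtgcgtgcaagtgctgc
PHB2 (chr12:6970724-6970813, minus strand): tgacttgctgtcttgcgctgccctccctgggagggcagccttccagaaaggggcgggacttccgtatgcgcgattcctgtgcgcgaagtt
SLIRP (chr14:77708011-77708100, plus strand): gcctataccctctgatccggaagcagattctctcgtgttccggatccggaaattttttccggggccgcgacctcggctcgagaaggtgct
NME1 makes a nucleoside diphosphate kinase, PHB2 a scaffold protein of the inner mitochondrial membrane, and SLIRP a protein that binds mitochondrial RNA.

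The third set holds ribosomal protein genes with a start peak, with 20 bases before the start and 30 from it. The capitals mark the run of pyrimidines that begins at the annotated start.
RPLP2 (chr11:809947-809996, plus strand): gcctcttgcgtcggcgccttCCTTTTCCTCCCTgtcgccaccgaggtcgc
RPS16 (chr19:39435920-39435969, minus strand): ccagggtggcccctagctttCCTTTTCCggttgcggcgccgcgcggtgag
RPL38 (chr17:74203658-74203707, plus strand): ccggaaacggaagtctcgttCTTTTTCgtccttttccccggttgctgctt
RPL27A (chr11:8682772-8682821, plus strand): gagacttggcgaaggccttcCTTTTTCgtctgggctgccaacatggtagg
RPL13 (chr16:89560637-89560686, plus strand): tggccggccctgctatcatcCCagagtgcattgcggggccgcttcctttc
RPL13 is the exception among these, with only 2 pyrimidines at its annotated start. RPLP2 has 13.

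The fourth set holds histone genes whose start peak met both mutants' peaks, with 50 bases before the start and 30 from it. The capitals mark TATAAA.
H1-4 (chr6:26156279-26156358, plus strand): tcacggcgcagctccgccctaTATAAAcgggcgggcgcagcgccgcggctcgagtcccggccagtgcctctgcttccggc
H2AC6 (chr6:26124122-26124201, plus strand): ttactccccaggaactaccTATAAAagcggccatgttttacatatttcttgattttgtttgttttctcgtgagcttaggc
H4C5 (chr6:26204560-26204639, plus strand): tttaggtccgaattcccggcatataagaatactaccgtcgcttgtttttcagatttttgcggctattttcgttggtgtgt
H4C5 has no TATAAA in this window.

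The summits gathered about 100 bp into the transcript. The median summit lay 139 bp downstream of the start, with 25% under 102 bp and 75% under 227 bp. The fullest stretch was 90 to 99 bp, with 106 summits, followed by 100 to 109 bp with 83, so 19.9% of the start peaks had their summit in those 20 bp. Only 11 summits lay under 50 bp from the start, against 205 at 50 to 99 bp and 307 at 100 to 149 bp. The counts then fell to 132 at 150 to 199 bp and 29 at 450 to 499 bp, and beyond the 500 bp limit each 50 bp held 7 to 22 summits out to 1000 bp. The distance chose the peaks, so these values describe them and were not tested.

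**Figure D1:**
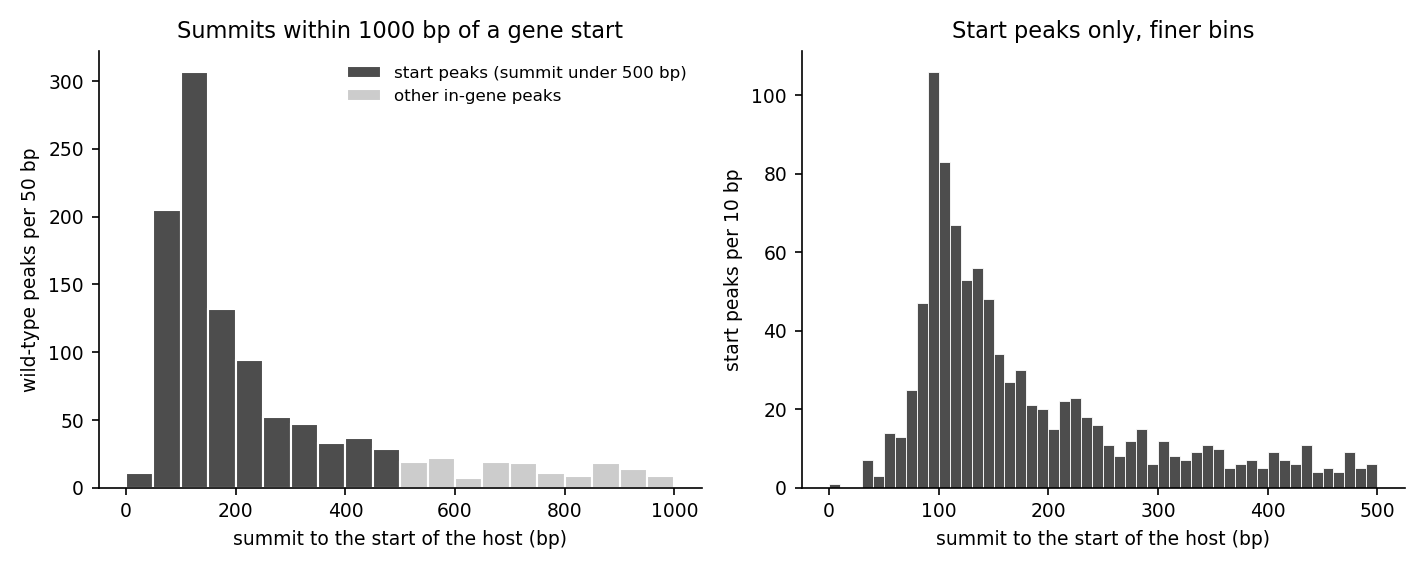
Left, number of wild-type peaks per 50 bp (y axis) by the distance of the summit from the start of the host in bp (x axis), dark below the 500 bp limit and pale beyond it. Right, the dark peaks per 10 bp, which rise to 106 at 90 to 99 bp and fall away on the far side, while 11 in all lie under 50 bp. The single summit at exactly 500 bp stands in the first pale bar.

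The bodies of the peaks began just inside the transcripts. The edge nearer the start had a median of 66 bp downstream, and in 631 peaks (66.6%) it lay 0 to 99 bp downstream. The far edge had a median of 268 bp, and the median width was 168 bp. Only 17 peaks (1.79%, interval 1.12 to 2.85) reached upstream of the annotated start. ERO1A, an oxidase of the endoplasmic reticulum, extended 156 bp upstream with its summit 7 bp downstream. SCD, the stearoyl-CoA desaturase of fatty acid synthesis, extended 60 bp upstream. In the others the reach was 49 bp or less, as in NDUFAF2, an assembly factor of respiratory complex I, with 21 bp, and the chaperonin subunit TCP1, with 11 bp.

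The limit of 500 bp falls in the thin tail of these distances. Just inside lay RNF149 at 495 bp (fold enrichment 8.66), RPS12 at 499 bp (10.7) and RPL27A at 500 bp (10.8). Just outside lay SAP18 at 501 bp (8.70), MTCH1 at 503 bp (7.28) and RPL10A at 503 bp (4.79). Fold enrichment is the authors' ratio of a peak's signal to a background that the sources used here do not name, and it was used only to rank and describe peaks within the wild-type list.

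Both the strand and the choice of start bear on these distances. A promoter table with strands covered the hosts of 672 start peaks, and 669 of them lay on the annotated strand. The other 3 were ZBTB25, GAREM2 and PCNA-AS1, where the summit was measured from the end of a gene transcribed the other way. Many genes also have more than 1 start. Of 943 other in-gene peaks whose host was in the table, 96 (10.2%) lay within 500 bp of a different annotated start of the same gene. PROCR, the receptor of activated protein C, was one, with its summit 1077 bp from the outer start and 101 bp from another. DYNLL1, a dynein light chain, was another, at 26368 bp and 97 bp. With these, 1044 of 2121 in-gene peaks (49.2%) lay at a start.

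The strength of the start peaks spanned more than an order of magnitude. Their fold enrichment ran from 1.91 to 44.8 with a median of 8.60 and quartiles of 6.21 and 11.8. The 1201 other wild-type peaks had a median of 7.66, quartiles of 5.42 and 11.2 and a maximum of 563. The −log10 q of a peak, the authors' measure of how surely it rose above background, had a median of 18.3 at starts and 17.3 elsewhere. By fold enrichment, 39 of the 100 highest peaks of the whole list were start peaks, and by −log10 q 56 of 100 were. No test of these differences was made, since peaks of 1 list are not replicates.

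The highest fold enrichments fell on genes of mitochondria and metabolism and on pseudogenes. RPS21P4, a processed copy of a ribosomal protein gene, stood first at 44.8, with its summit 147 bp from the start. NME1 followed at 37.1 (80 bp). PPA1, the cytosolic inorganic pyrophosphatase, had 31.6 and PHB2 30.9. ATP5F1B, the catalytic beta subunit of ATP synthase, had 29.9 and SLIRP 27.0. High values also fell on the pseudogenes RPL4P4 (30.4), TUBBP1 (29.7) and RPLP2P5 (27.2). Reads from near-identical copies can be split or misplaced between a gene and its pseudogenes, so those peaks are uncertain as to their source.

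The surest peaks were a different set. RPPH1, the RNA of ribonuclease P, led with a −log10 q of 1189 at a fold enrichment of 3.61, and RMRP, the RNA of ribonuclease MRP, followed with 1102 at 1.94. Both are short RNAs made by RNA polymerase III, and a peak anywhere in them counts as a start peak. The small Cajal body RNA SCARNA28 had 386 at a fold enrichment of 21.8. The linker histones H1-4 (379) and H1-2 (235), the core histone H2AC20 (235) and the ribosomal protein gene RPL8 (244) came next. RPL4P4 (202), TUBBP1 (196) and H2BC12 (182) completed the top 10. RPL4P4 and TUBBP1 were among the highest by both measures.

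**Figure D2:**
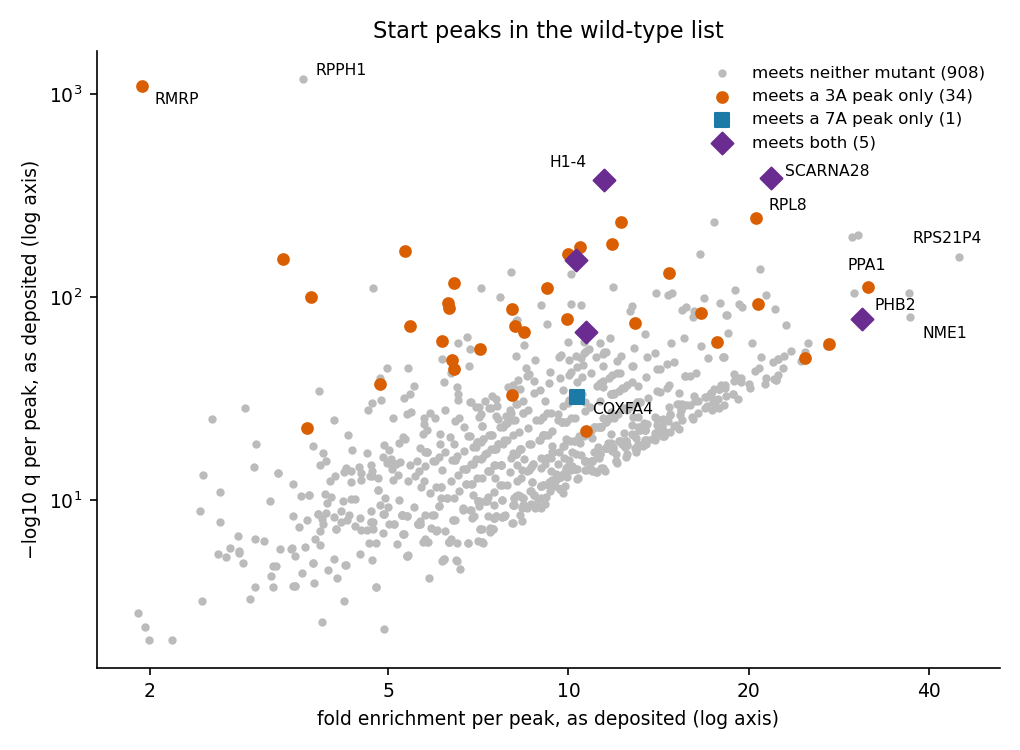
Each of the 948 start peaks by its fold enrichment (x axis, log scale) and −log10 q (y axis, log scale), both as deposited, coloured by whether a 3A or 7A peak overlaps it. RPPH1 and RMRP sit alone at the upper left with low fold enrichment, and the coloured points lie in the upper part of the cloud, none below a −log10 q of 21.8.

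Most hosts were protein-coding. Coding genes held 800 start peaks (84.4%, interval 81.9 to 86.6), pseudogenes 124 (13.1%), long non-coding RNA genes 16 (1.69%) and small or other RNA genes 8 (0.844%). Among the 1173 other in-gene peaks the counts were 1070 (91.2%), 37 (3.15%), 66 (5.63%) and 0. These shares follow the rule in part, because a summit in a short host is always close to a start: 132 start peaks had a host under 1000 bp, against 7 of the other in-gene peaks. Of the start peaks, 58 had a host of at most 500 bp, where any summit qualifies, and 81 of the 124 pseudogene peaks had a host under 1000 bp. Ribosomal protein pseudogenes held 52 of the 124. Across protein-coding genes of the annotation, 768 of 20052 (3.83%) had a start peak.

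Of the 908 hosts, 683 had wild-type peaks in the list at the start alone and 225 also had one elsewhere. Elsewhere is measured from the outer start, so it can include a peak at another annotated start of the same gene. Depth is unknown, so the rest of those 683 genes is not shown to be unbound, and 58 start peaks had hosts of at most 500 bp, where no other place exists. In those 225 genes the strongest start peak had the higher fold enrichment in 117 (52.0%, interval 45.5 to 58.4), with a median log2 ratio of start over other peak of 0.04. In NME1 the start peak reached 37.1 and the strongest other peak 20.7, and in RPL8 the values were 20.6 and 7.46. The order was the opposite in SCD, with 19.2 at the start and 26.9 elsewhere, and in the nucleolar protein gene EBNA1BP2, with 22.1 and 25.999. The strongest start peak and the strongest other peak of a gene were thus close at the median and far apart in single genes. The number of peaks differed between both sides, as in PKM with 1 start peak and 11 others and SLC16A1 with 2 and 1. The part of these counts in the comparison was not tested.

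A pair of start peaks occurred in 40 hosts and none had 3 or more. The median gap between both summits was 280.5 bp, and the peak nearer the start had the higher fold enrichment in 27 of 40. SLC16A1, a lactate transporter, had a fold enrichment of 18.0 at 102 bp and 13.1 at 334 bp. The helicase gene DDX21 had 16.9 at 95 bp and 12.5 at 280 bp, and the histone gene H2AC14 15.3 at 93 bp and 5.66 at 435 bp. SNHG25 went the other way, with 11.7 at 92 bp and 21.4 at 288 bp. TUBBP1, a tubulin pseudogene, had 29.7 at 235 bp and 8.52 at 431 bp. The genes named here are among those with the highest values.

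Gene lists of the classes that MYC is known for were counted next, with the background that 908 of the 1426 genes with any wild-type peak (63.7%) had one at the start. Each list is given as genes with a start peak out of those listed, to be set beside the 3.83% of all coding genes, and out of those with any peak, to be set beside the 63.7%. The median of each gene's highest start peak over those 908 was a fold enrichment of 8.75, with a median summit distance of 136 bp. The lists were chosen with earlier results of these data known, 205 hosts belonged to one of them, and the counts are descriptions. The peak lists hold no RNA levels, and the part of RNA level in these shares was not tested.

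Ribosome biogenesis and nucleolar factors had a start peak in 20 of 40 genes, and in 66.7% of the 30 with any peak. Their median start fold enrichment was 13.6, and their summits lay at a median of 103.5 bp. NOP16 had 22.4 at 99 bp, EBNA1BP2 22.1 at 398 bp and NOLC1, a chaperone of nucleolar particles, 20.995 at 90 bp. RRP1B had 20.1, DDX21 16.9 and nucleolin (NCL) 16.6 at 99 bp. The list does not hold every gene of the class, and it leaves out NOP14 (22.2 at 142 bp), which also had a start peak.

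Cytosolic ribosomal protein genes had a start peak in 31 of 79. For the large subunit it was 18 of 47 and 50% of the 36 with any peak, with a median fold enrichment of 9.22 and a median summit distance of 293 bp. For the small subunit it was 13 of 32 and 59.1% of the 22 with any peak, with a median of 8.77 and a distance of 219 bp. Both distances are longer than the 136 bp over all hosts. The highest were RPL8 (20.6 at 347 bp), RPLP2 (18.4 at 362 bp), RPL27 (17.8 at 325 bp) and RPS16 (14.9 at 68 bp). RPS25 had 11.4 at 99 bp and RPS20 9.20 at 98 bp. With a limit of 250 bp in place of 500 bp, 16 ribosomal protein genes kept a start peak.

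Other genes of protein synthesis and folding followed. Translation factors had a start peak in 10 of 38 and in 52.6% of the 19 with any peak, led by EIF4A3 (14.8), a helicase of the exon junction complex, and EIF2S1 (12.1), a subunit of the factor that brings the initiator tRNA. Cytosolic aminoacyl-tRNA synthetases had 6 of 23 (54.5% of the 11 with any peak) with a median of 13.8, led by KARS1 (20.8 at 87 bp) and IARS1 (16.99). Chaperones had 15 of 25 (68.2% of the 22 with any peak, near the background), led by the chaperonin subunits TCP1 (16.7 at 76 bp) and CCT6A (16.1 at 162 bp) and the HSP90 partner PTGES3 (15.5). Proteasome subunits had 10 of 31 (71.4% of the 14 with any peak) with a median of 12.9, led by PSMD7 (23.0) and PSMA7 (20.7).

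Nuclear genes of mitochondrial proteins included several of the highest peaks. Subunits of oxidative phosphorylation had a start peak in 23 of 75 genes (63.9% of the 36 with any peak), with a median fold enrichment of 11.7 at a median of 115 bp. ATP5F1B led with 29.9, followed by NDUFB8 of complex I with 24.8 at 137 bp and ATP5F1D with 18.2. Complex I subunits NDUFB6 (18.1) and NDUFAB1 (17.3) and the complex III subunit UQCRH (16.3) followed. Mitochondrial ribosomal proteins had 16 of 75 (80% of the 20 with any peak) with a median of 10.5, led by MRPL32 (16.9 at 86 bp) and MRPL37 (14.8). These lists leave out MRPL58 (13.1 at 95 bp) and the respiratory-chain gene COXFA4 (10.3 at 97 bp), which also had start peaks.

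Metabolic and structural genes were counted in the same way. Glycolysis enzymes had a start peak in 4 of 17 (TPI1 at 16.6, ENO1 at 10.5, PKM at 9.33 and LDHB at 9.21), which is 40% of the 10 with any peak. DNA replication and nucleotide synthesis had 9 of 35 (50% of the 18 with any peak), with NME1 far above IMPDH2 (14.2), the rate-limiting enzyme of guanine nucleotide synthesis, and PPAT (11.8), the first enzyme of purine synthesis. Cholesterol and fatty acid synthesis had 5 of 28 (50% of the 10 with any peak), led by SCD (19.2 at 30 bp). Cytoskeleton genes had 4 of 28 (33.3% of the 12 with any peak): CFL1 (12.8), TUBA1B (11.9), TMSB10 (7.26) and PFN1 (6.30).

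RNA-processing genes and RNA hosts took part as well. Splicing factors of the SR and hnRNP families had a start peak in 13 of 35 (59.1% of the 22 with any peak), with a median of 8.02 and a maximum of 10.6 in SRSF2. The listed small nucleolar RNA host genes had 8 of 18 (80% of the 10 with any peak), led by EPB41L4A-AS1 (23.5 at 471 bp) and SNHG29 (17.7 at 271 bp). The list leaves out SNHG25 (21.4 at 288 bp) and SNHG4 (13.3 at 166 bp), which also had start peaks. The listed host genes' start peaks lay at a median of 197.5 bp.

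Replication-dependent histone genes had nearly all of their peaks at the start. These genes are typically short, lack introns and end in a stem-loop in place of a poly(A) tail. The annotated spans of H2BC12 (8566 bp) and H2BC4 (10757 bp) are longer. Of 63 genes, 31 had a wild-type peak and 30 of those had one at the start, which a short gene makes likely. Their 35 start peaks had a median width of 372 bp, against 166 bp in the other 913, and a median −log10 q of 55.5 against 18.1. The median fold enrichment was 8.03 against 8.66. H2BC11 had the highest at 18.99, followed by H2AC20 (17.5), H4C9 (15.6), H2AC14 (15.3), H2BC14 (12.5) and H1-2 (12.2). Copies of a histone type are near-identical, so reads may have been placed at a sister gene.

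**Figure D3:**
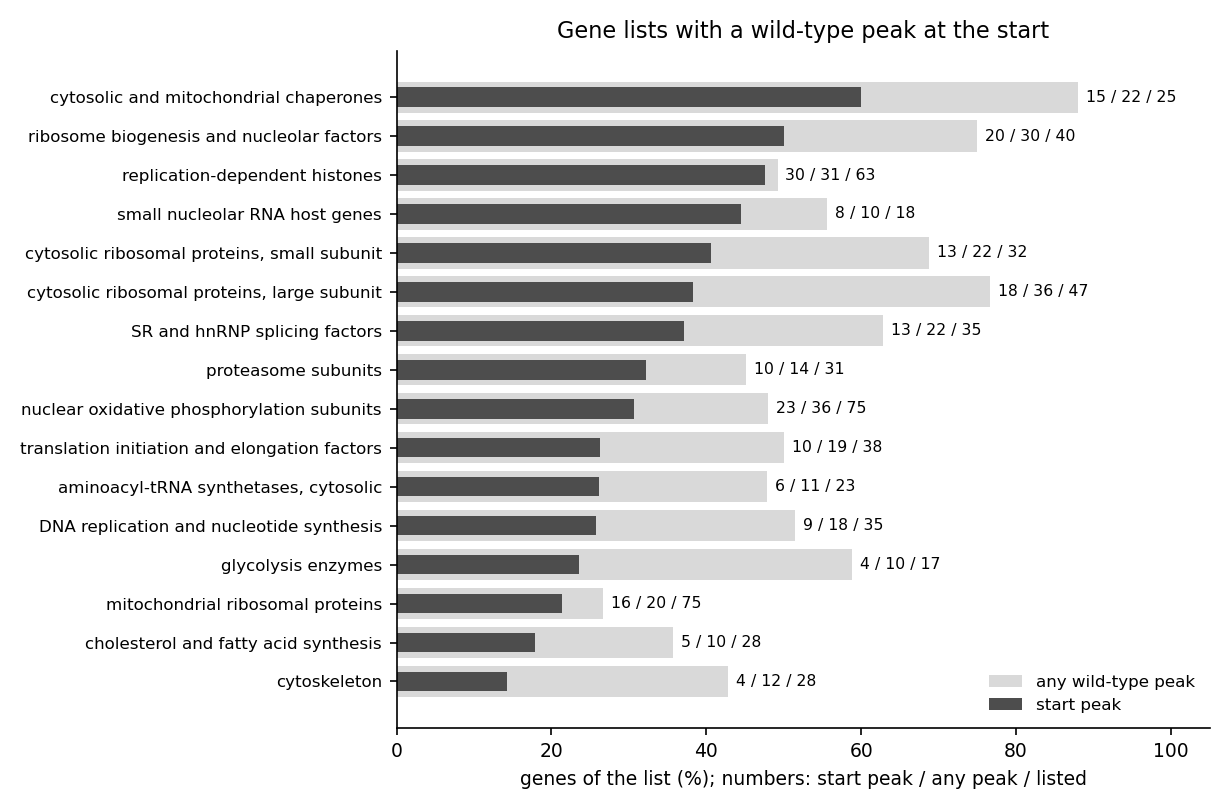
Share of the genes of each list (x axis, %) with any wild-type peak (pale bars) and with a start peak (dark bars), with the counts at the end of each bar. Chaperones have 15 of 25 at the start and 22 with any peak, and in histones the dark bar nearly fills the pale one, 30 of 31.

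Marker genes gave no check of the cell type. Of 14 mesenchymal and bone markers of U2OS cells, 0 had a start peak and only VIM, the intermediate filament vimentin, had any wild-type peak, 1648 bp from its start. Of 26 markers of other tissues, 1 had a start peak: NEFL, a neurofilament gene, with a fold enrichment of 10.6 at 128 bp. A peak list reports bound RNA and not expression, so an absent marker says nothing of its level.

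The promoters of the hosts were set beside those of other genes over windows from 250 bases before to 50 after the start. Motifs were searched on both strands, may overlap one another, and are matches of letters rather than known sites. The E-box CACGTG was in 82 of 649 windows of start-peak hosts (12.6%, interval 10.3 to 15.4), in 46 of 416 windows of genes with other wild-type peaks only (11.1%, 8.39 to 14.4) and in 8.83% of 15841 protein-coding genes. Over all 27302 genes of the table the share was 7.40%. The variant E-box CACGCG was in 24.4%, 22.4%, 14.9% and 11.4%. The GC box GGGCGG was in 71.8%, 65.6%, 58.3% and 44.5%. The ETS-type core CGGAAG was in 43.5% (interval 39.7 to 47.3), 35.3% (30.9 to 40.1), 25.5% and 19.9%. In the same order, a start at C followed by at least 4 pyrimidines was found in 10.6%, 9.38%, 4.59% and 4.04%. Ribosomal protein genes were 19 of the 69 start-peak hosts with such a start. TATAAA was in 8.78%, 6.49%, 9.75% and 12.02%. Counted only on the coding strand in a short stretch upstream of the start, it was in 5.24%, 1.44%, 3.725% and 2.65%. Histone genes were 21 of the 57 start-peak hosts with TATAAA in the window and 18 of the 34 with it in that stretch. No test of these shares was made.

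For every motif here except TATAAA, the share in start-peak hosts lay nearer to that of hosts of other peaks than to that of all coding genes. The TATAAA share of start-peak hosts includes the histone genes counted above. The window stood at the gene's outer end in 97.1% of the start-peak hosts, 80.3% of the hosts of other peaks and 87.2% of coding genes. The median GC content of the windows was 65.7% in start-peak hosts, 63.7% in hosts of other peaks only and 62.7% in all coding genes, and its part in the motif shares was not tested. The observed over expected CpG ratio had medians of 0.91, 0.83 and 0.76. Start peaks whose host window held CACGTG had a median fold enrichment of 9.70 (84 peaks), and those without it 8.31 (588 peaks), with quartiles that overlap (6.44 to 12.7 and 6.20 to 11.3). For the GC box the medians were 8.30 with and 8.75 without.

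The gene classes had their own promoters. Of 23 ribosomal protein genes with a start peak and a window, 19 (82.6%, interval 62.9 to 93.0) began with C and at least 4 pyrimidines, as RPLP2 and RPS16 do in the sequences above, and 0 held CACGTG, with a Wilson interval up to 14.3%. Among all 63 ribosomal protein genes in that table, 43 (68.3%) had that start, so it belongs to the class. Of 28 histone genes with a start peak and a window, 21 (interval 56.6 to 87.3%) held TATAAA, as H1-4 and H2AC6 do, and 0 held CACGTG, with an interval up to 12.1%. In the short stretch upstream of the start, 18 of the 28 held TATAAA on the coding strand. Their median GC content was 43.2%.

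**Figure D4:**
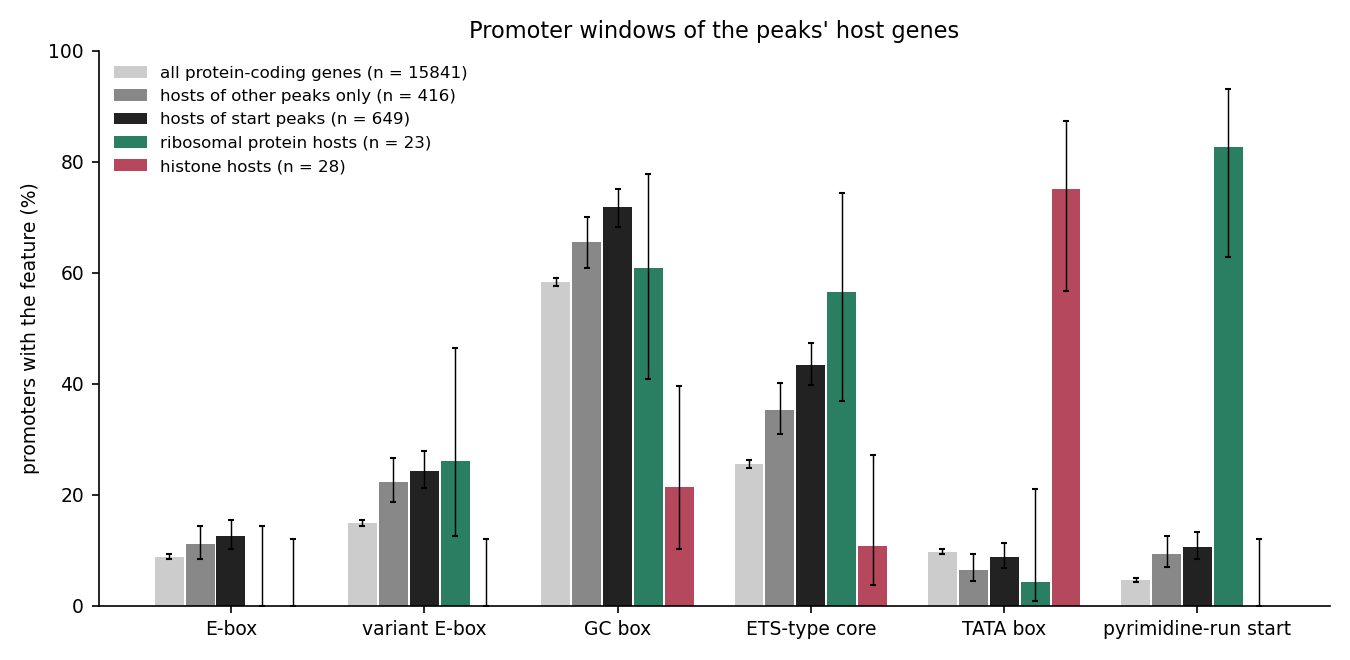
Share of promoter windows (y axis, %) with each feature in 5 sets of genes, with 95% Wilson intervals. The 3 grey to black bars of a feature, for all coding genes, hosts of other peaks and hosts of start peaks, rise in that order except for the TATA box. The TATA box here is TATAAA anywhere in the window on either strand. Ribosomal protein hosts stand out at the pyrimidine-run start (82.6%) and histone hosts at the TATA box (21 of 28).

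Few start peaks were also present in the mutants' lists. A wild-type peak was said to meet a mutant peak when both overlapped by at least 1 bp on the same strand. Of the 948 start peaks, 39 met a 3A peak (4.11%, interval 3.02 to 5.57), where the share over all wild-type peaks was 3.54%. Among the 1201 other peaks it was 37 (3.08%, 2.24 to 4.22). A 7A peak was met by 6 start peaks (0.633%, 0.290 to 1.37), where the share over all wild-type peaks was 1.4%, and by 24 other peaks (2.00%, 1.35 to 2.96). The 3A share was near the share over the list, and the 7A share was below it, with counts too small to say more and no test made.

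Seen from the mutants, 42 of the 103 3A peaks (40.8%) and 6 of the 88 7A peaks (6.82%) overlapped a start peak. Any wild-type peak was met by 81 3A peaks (78.6%) and 30 7A peaks (34.1%), and start peaks were 44.1% of the wild-type list. By the same rule 46 3A peaks were themselves start peaks, and 41 of those met a wild-type start peak. For 7A there were 7, of which 6 did. Depth, control and pooling behind each list are unknown, so a shorter list can hold fewer peaks for reasons other than binding, which was not tested.

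The start peaks that met 3A were among the surest of the wild-type list. Their median −log10 q was 86.7, the lowest was 21.8, and the other start peaks had a median of 17.9. Their median fold enrichment of 9.93 was closer to the 8.58 of the others, and they were wider, 256 bp against 164 bp. Of the 100 start peaks of highest −log10 q, 32 met 3A and 5 met 7A. Of the 100 other peaks of highest −log10 q, 20 met 3A and 10 met 7A. Among the surest peaks, overlap with the mutants thus occurred both at starts and elsewhere.

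By fold enrichment, PPA1 led the start peaks that met 3A (31.6), followed by PHB2 (30.9) and RPLP2P5 (27.2). NDUFB8 (24.8), SCARNA28 (21.8), the proteasome subunit PSMA7 (20.7) and RPL8 (20.6) came next. SNHG29 (17.7), TCP1 (16.7) and PTMA (14.7), the gene of prothymosin alpha, completed the 10. In PPA1 the wild-type peak spanned 37 to 212 bp from the start and the 3A peak 55 to 189 bp, with the same summit. In NDUFB8 the spans were 69 to 185 bp and 66 to 173 bp, again with the same summit. In RPL8 a 400 bp wild-type peak met a pair of 3A peaks, 1 of them with the same summit.

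Histones made up a large part of this overlap. Of the 35 histone start peaks 13 met 3A (37.1%, interval 23.2 to 53.7), and of the other 913 it was 26 (2.85%). For 7A the counts were 3 of 35 and 3 of 913. With histone hosts left out of both, the 3A share was 2.85% of start peaks (interval 1.95 to 4.14) and 2.98% of all wild-type peaks (2.34 to 3.796). Histone start peaks were also wider and of higher −log10 q, as given above, and the part of those differences in the overlap was not tested. Among hosts of at least 1 kb, 2.82% of start peaks met 3A, against 2.83% of the other in-gene peaks, and 0.245% met 7A, against 1.63%.

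All 6 start peaks that met 7A can be named. SCARNA28, PHB2, H1-4, H2AC6 and H4C5 met both mutants, and COXFA4, a small subunit of the respiratory chain formerly called NDUFA4, met 7A alone. In SCARNA28 the wild-type peak covered 196 bp, the 3A peak 140 bp and the 7A peak 116 bp, with the 3A summit 3 bp and the 7A summit 1 bp from the wild-type summit. In H1-4 the wild-type peak covered 786 bp, the 3A peak 569 bp and the 7A peak 154 bp. In PHB2 both mutant summits lay away from the wild-type summit, by 63 bp for 3A and 72 bp for 7A. In COXFA4 the peaks covered 125 bp in the wild type and 114 bp in 7A, with summits 8 bp apart.

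Where peaks met, the summits lay within 50 bp of each other in 31 of 42 pairs for 3A and 4 of 6 for 7A. Of the 42 3A peaks that met a start peak, 23 had a summit within 10 bp of it, the median shift was 5 bp and the largest was 248 bp in HNRNPD. Of the 6 7A peaks, 4 were within 10 bp. The mutant peak was the narrower in 38 of 42 pairs for 3A and in 6 of 6 for 7A. The part of depth, which is unknown for each list, in these widths was not tested.

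**Figure D5:**
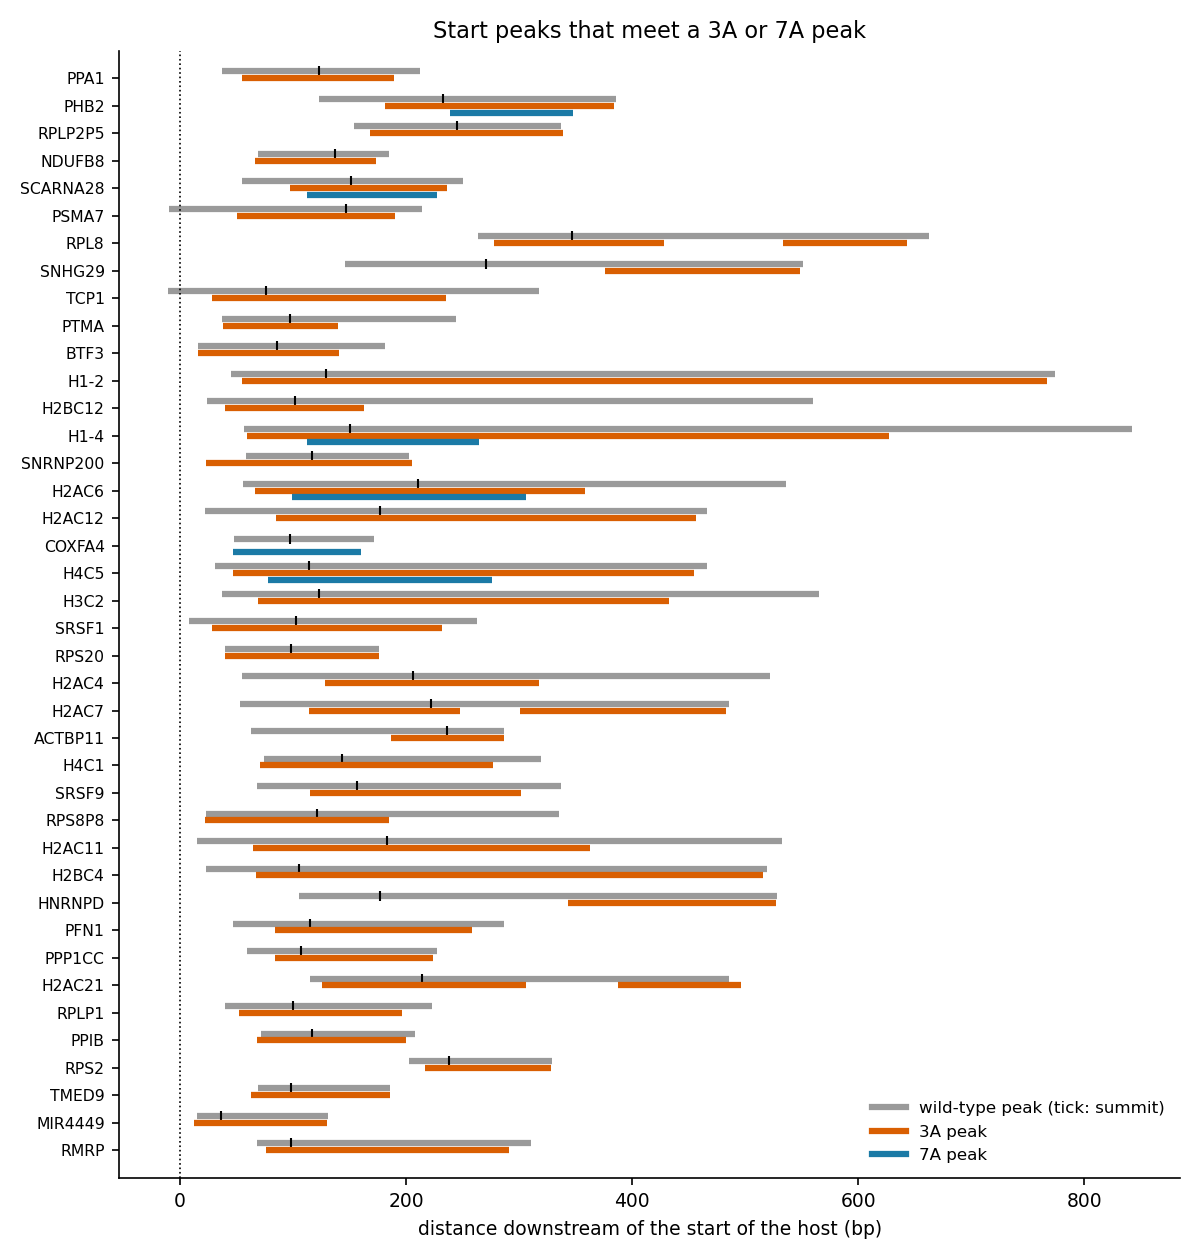
Wild-type start peaks (grey, with a tick at the summit) and the 3A (orange) and 7A (blue) peaks that overlap them, by distance downstream of the start of the host in bp (x axis), for the 40 start peaks met, ordered by wild-type fold enrichment. Most mutant peaks lie inside the wild-type span, and the longest spans are those of histone genes such as H1-4 (786 bp).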

How the data were processed

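Per the labels' protocols, cells were irradiated with ultraviolet light, lysed and treated with RNase I and DNase before precipitation of the tagged protein, and libraries were selected by size on a gel. The part of fragment length in how near to a start a summit can lie was not tested. The submitters' processing notes name cutadapt, BWA and MACS2 and the build hg38. No source used here states their versions and settings, the control of the peak calls, or any pooling of both replicates. The authors deposited, for each peak, a fold enrichment (a ratio) and a −log10 q value, whose lowest value in the wild-type list was 2.04. Depth per sample is unknown.

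Positions were turned to 1-based coordinates and set against a RefSeq table of GRCh38.p14 with 59788 placed genes, which gives no exons. Promoter windows ran from 250 bases before to 50 after the start, for 27302 genes, and the outermost start of a gene was used. Shares carry 95% Wilson intervals. There is 1 list per allele and no value per replicate, so no test was made. The host, distance and overlap steps were tested on simulated peaks. Python 3.11.15, pandas 2.3.3, NumPy 2.4.6, SciPy 1.17.1 and matplotlib 3.10.9 were used.

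The peaks and the 18 gene lists were chosen with earlier results of these data known. Named genes are the hosts of the 10 highest start peaks by fold enrichment and by −log10 q, up to 6 hosts with a pair of start peaks, the 10 highest that met 3A, all that met 7A, up to 6 per gene list, and 3 on either side of 500 bp. Sequences are from up to 12 hosts by fold enrichment, 6 ribosomal protein genes and 4 hosts met by both mutants. Names outside the rule, such as those of peaks that reach upstream, lie off the annotated strand or sit at another start, were chosen after their values were seen. Alternatives were limits of 250 and 1000 bp, a −log10 q of at least 5, coding hosts first, hosts of at least 1000 bp, the annotated strand only, and other overlap rules. Some items that the rule selects are not reported here.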

Additional observations from a re-analysis of the deposited data

How the results depend on the processing

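Of 68 values of 8 results under the alternatives, 61 stayed within the interval or within 1.5 times the count, and 7 did not. The number of start peaks, 948 in the text, was 752 within 250 bp, 1093 within 1000 bp, 916 at a −log10 q of at least 5, 937 with coding hosts first, 816 in hosts of at least 1000 bp, 669 on the annotated strand alone, 1044 with any start of the host and 913 without histone hosts. The last 2 settings were chosen after seeing the data. The annotated-strand setting also drops every host outside the promoter table, which covered 672 start peaks, with only 3 of these on the other strand. Ribosomal protein genes with a start peak went from 31 to 16 within 250 bp. The share in coding hosts, 84.4% in the text, was 89.1% with coding hosts first, 93.3% in hosts of at least 1000 bp and 98.4% on the annotated strand, where the table holds few pseudogenes. The share that met 3A went from 4.11% to 2.82% in hosts of at least 1000 bp and to 2.85% without histone hosts. The share that met 7A went from 0.633% to 0.245% in hosts of at least 1000 bp. Both overlap shares were the same when the overlap had to cover 50% of the shorter peak and when strand was ignored. Beyond the hosts each setting removes, the cause was not tested. No paired analysis was possible because the lists carry no replicate values, which also kept any replicate from being omitted. With unknown depth, a start without a peak is not shown to be unbound.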

Other observations

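Start peaks were spread over the chromosomes unevenly. Chromosome 6, which carries the main histone cluster, had 70 start peaks among 121 wild-type peaks (57.9%), and chromosome 1 had 83 among 197 (42.1%). The lowest share was on chromosome 22, with 32 of 94 (34.0%), and the highest on chromosome 4, with 33 of 53 (62.3%).

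Long non-coding hosts of start peaks were mostly small nucleolar RNA hosts. Of 16 such peaks in 15 genes, the highest fold enrichments were in EPB41L4A-AS1 (23.5), SNHG25 (21.4), SNHG29 (17.7) and PRMT5-DT (16.5), a transcript that starts next to an arginine methyltransferase gene. The median was 10.2, and the median summit lay 197.5 bp from the start. Among the 8 peaks in small or other RNA genes, SNORD133 had a fold enrichment of 17.9, MIR4449 3.34 and SNORD74 5.39, and the hosts had a median length of 205 bp.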
